A study of Mus musculus with 12 samples.

Results

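The 42 genes described here encode the enzymes that break glucose down to pyruvate and lactate, the enzymes and kinases that control the use of pyruvate inside mitochondria, and the enzymes of the tricarboxylic acid (TCA) cycle. They were taken by name from a table of 53465 genes, through their Ensembl identifiers, and not by their values. The list holds 16 glycolysis enzymes from hexokinase to lactate dehydrogenase, 2 glucose transporters, the regulator gene Pfkfb3, 3 pyruvate dehydrogenase kinases, 4 subunits of the pyruvate dehydrogenase (PDH) complex, pyruvate carboxylase and 15 genes of TCA cycle steps. Of these 15, 12 encode mitochondrial enzymes, and Aco1, Idh1 and Mdh1 encode cytosolic forms of aconitase, isocitrate dehydrogenase and malate dehydrogenase.

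Glycolysis splits glucose in the cytosol and uses NAD+ at the Gapdh step, and lactate dehydrogenase returns NADH to NAD+ when it reduces pyruvate to lactate. The PDH complex turns pyruvate into acetyl-CoA inside mitochondria, and its kinases switch it off by phosphorylation, while pyruvate carboxylase makes oxaloacetate from pyruvate and so refills the TCA cycle. Quiescent hematopoietic stem cells are known for their reliance on glycolysis and for high pyruvate dehydrogenase kinase activity. Nicotinamide riboside (NR) is a form of vitamin B3 that cells convert to NAD+.

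RNA was measured by bulk sequencing in 12 libraries of mouse bone marrow cells in 4 groups of 3 samples. Long-term hematopoietic stem cells (LT-HSCs, sorted as CD34- cells negative for lineage markers and CD48 and positive for c-Kit, Sca-1 and CD150) and short-term cells (ST-HSCs, sorted the same way but CD34+) were each grown for 2 days with 1 mM NR, renewed after 24 h, or without NR as controls. All 4 groups were kept in the same serum-free medium with stem cell factor and Flt3 ligand. The labels give no mouse strain, age or genotype, and do not say whether samples came from separate mice or cultures, so p-values speak only of how far these samples scatter, and that scatter may be technical.

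Libraries held 24.6 M to 35.5 M gene counts (median 31.7 M). Reads in no annotated feature made up 28.5% of NR LT-HSC sample 3 and 26.2% of NR ST-HSC sample 3, and at most 16.99% of any other library. Counts of called members are therefore also given without these 2 libraries, and members that then lost an NR call are named. The sort marker Cd34 stood at 230 to 266 CPM (a gene's counts relative to the TMM-scaled total of its library) in the NR and 247 to 270 CPM in the control LT-HSC samples, against 664 to 740 CPM in the NR and 606 to 639 CPM in the control ST-HSC samples. All 10 listed stem cell markers were present in both cell types, with Kit at 1344 to 1716 CPM and Mecom at 72.6 to 187 CPM. All 42 enzyme genes passed the filter on low counts, and every one had at least 177 counts in each library. In bulk RNA, fewer cells of a type and less RNA per cell cannot be told apart.

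Bases upstream of 3 members are shown because these genes carry the E-box CACGTG, a motif bound by transcription factors of the MYC and USF families, and because their RNA moved with NR in different directions in the results that follow. Each sequence runs 5′ to 3′ over the 250 bases before a RefSeq transcript start (mouse GRCm38.p6), with CACGTG in capitals. Ldha, whose RNA fell with NR in both cell types, holds the motif at 145 and 48 bases before the start (chr7:46845554-46845803, plus strand). Pcx, which also fell in both, holds it at 248 bases (chr19:4510222-4510471, plus strand), and Pdk2, which rose in ST-HSCs, at 126 bases (chr11:95041372-95041621, minus strand). Each of these genes has 2 listed starts, and the other start of each holds 0 CACGTG. Which start is used in these cells was not tested.
Ldha: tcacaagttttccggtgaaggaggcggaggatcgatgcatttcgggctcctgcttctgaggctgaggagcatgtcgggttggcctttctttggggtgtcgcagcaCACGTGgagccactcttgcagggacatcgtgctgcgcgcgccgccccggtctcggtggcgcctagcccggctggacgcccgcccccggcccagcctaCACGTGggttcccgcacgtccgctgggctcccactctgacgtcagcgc
Pcx: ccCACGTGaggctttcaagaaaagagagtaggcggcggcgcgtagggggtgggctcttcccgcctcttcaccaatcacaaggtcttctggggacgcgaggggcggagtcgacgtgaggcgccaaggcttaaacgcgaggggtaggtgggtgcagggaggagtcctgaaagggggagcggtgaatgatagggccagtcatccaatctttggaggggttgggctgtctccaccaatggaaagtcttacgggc
Pdk2: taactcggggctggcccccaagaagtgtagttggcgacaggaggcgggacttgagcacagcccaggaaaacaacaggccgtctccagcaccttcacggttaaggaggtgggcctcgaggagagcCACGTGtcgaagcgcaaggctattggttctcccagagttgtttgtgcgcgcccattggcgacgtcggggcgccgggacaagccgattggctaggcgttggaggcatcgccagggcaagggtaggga
RefSeq windows were found for 40 of the 42 members by symbol, with 61 start sites in all. CACGTG lay within 250 bases of a start in 6 of these 40 genes (15%; the other holders were Ogdh, Pfkfb3 and Pfkm), against 6.86% of the 27025 genes in the RefSeq table. ACGTG, the core of the hypoxia response element and also part of CACGTG, lay in 16 of 40 (40.0%, against 18.5%), and its variant GCGTG in 23 of 40 (57.5%, against 30.9%). TGATGNAA, a composite ATF4 motif, lay in 0 of 40, against 3.91% of all genes. A gene was counted if any of its starts matched, and the members had 61 starts for 40 genes, against 32851 for 27025. Counted by start, CACGTG lay in 13.1% of the members' starts and 6.02% of all. Among the holders not shown, Ogdh was called lower in ST-HSCs and for the average. Pfkfb3 and Pfkm were called in neither cell type nor the average. The RefSeq table was not limited to expressed genes, whereas all 42 members have a mean of at least 5 CPM. Both strands were searched, and a match is a description of these letters and not of a bound site. A link between motif and NR response was not tested.

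With NR, more of these genes fell than rose. In LT-HSCs 17 of the 42 were lower and 2 higher at a Benjamini-Hochberg adjusted p under 0.05 in edgeR's quasi-likelihood test, where 7.58% of all 19830 genes tested were called lower and 2.38% higher. In ST-HSCs 18 were lower and 6 higher, against 11.1% and 5.82% of all genes tested. Averaged over both cell types, 27 were lower and 5 higher, against 16.1% and 7.88% of all genes. All 42 members have a mean of at least 5 CPM, and among the 10473 genes at that level the shares called lower were 14% in LT-HSCs, 20% in ST-HSCs and 28.6% for the average, and those called higher were 4.2%, 9.59% and 12.7%. The members' higher calls, 2, 6 and 5 of 42, are near these shares. The NR samples lay wholly below the controls for 29 members in LT-HSCs and above for 3, against 15.9% and 8.57% of all genes. For ST-HSCs the counts were 28 and 6, against 20.9% and 11.9%. A lack of overlap, given below for single genes, is therefore frequent among all genes tested.

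The same 15 members were lower in both cell types, namely Gpi1, Gapdh, Ldha, Pdk1, Pdk3, Dlat, Pcx and 8 mitochondrial TCA cycle genes. Slc2a3 and Aldoc were higher in both. The median log2 change of the 42 was -0.22 in LT-HSCs and -0.21 in ST-HSCs, while the median over genes of at least 5 CPM was -0.06 and -0.08. Without the 2 libraries rich in reads outside genes, the counts were 12 lower and 2 higher in LT-HSCs and 10 lower and 6 higher in ST-HSCs, and the medians were -0.16 and -0.08, while the median over genes of at least 5 CPM was -0.0002 and 0.02. Over all genes tested, that fit called 877 lower and 521 higher in LT-HSCs and 1229 lower and 1545 higher in ST-HSCs. Gpi1, Pdk3 and Dlst were then called in neither cell type. Tpi1 and Dlat were no longer called in LT-HSCs, nor were Gapdh, Pdha1, Cs, Ogdh and Suclg1 in ST-HSCs. For the average, calls were lost for Slc2a1, Gpi1, Tpi1, Pgk1, Eno1, Pdha1, Pdhb, Dld, Idh3g and Sucla2. With relative log expression (RLE) factors in place of TMM, calls over all genes split into 1192 lower and 712 higher in LT-HSCs, against 1503 and 472 with TMM, and into 1552 lower and 1662 higher in ST-HSCs, against 2193 and 1155. The members' split was 13 lower and 2 higher in LT-HSCs and 14 lower and 6 higher in ST-HSCs with RLE factors.

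**Figure D1:**
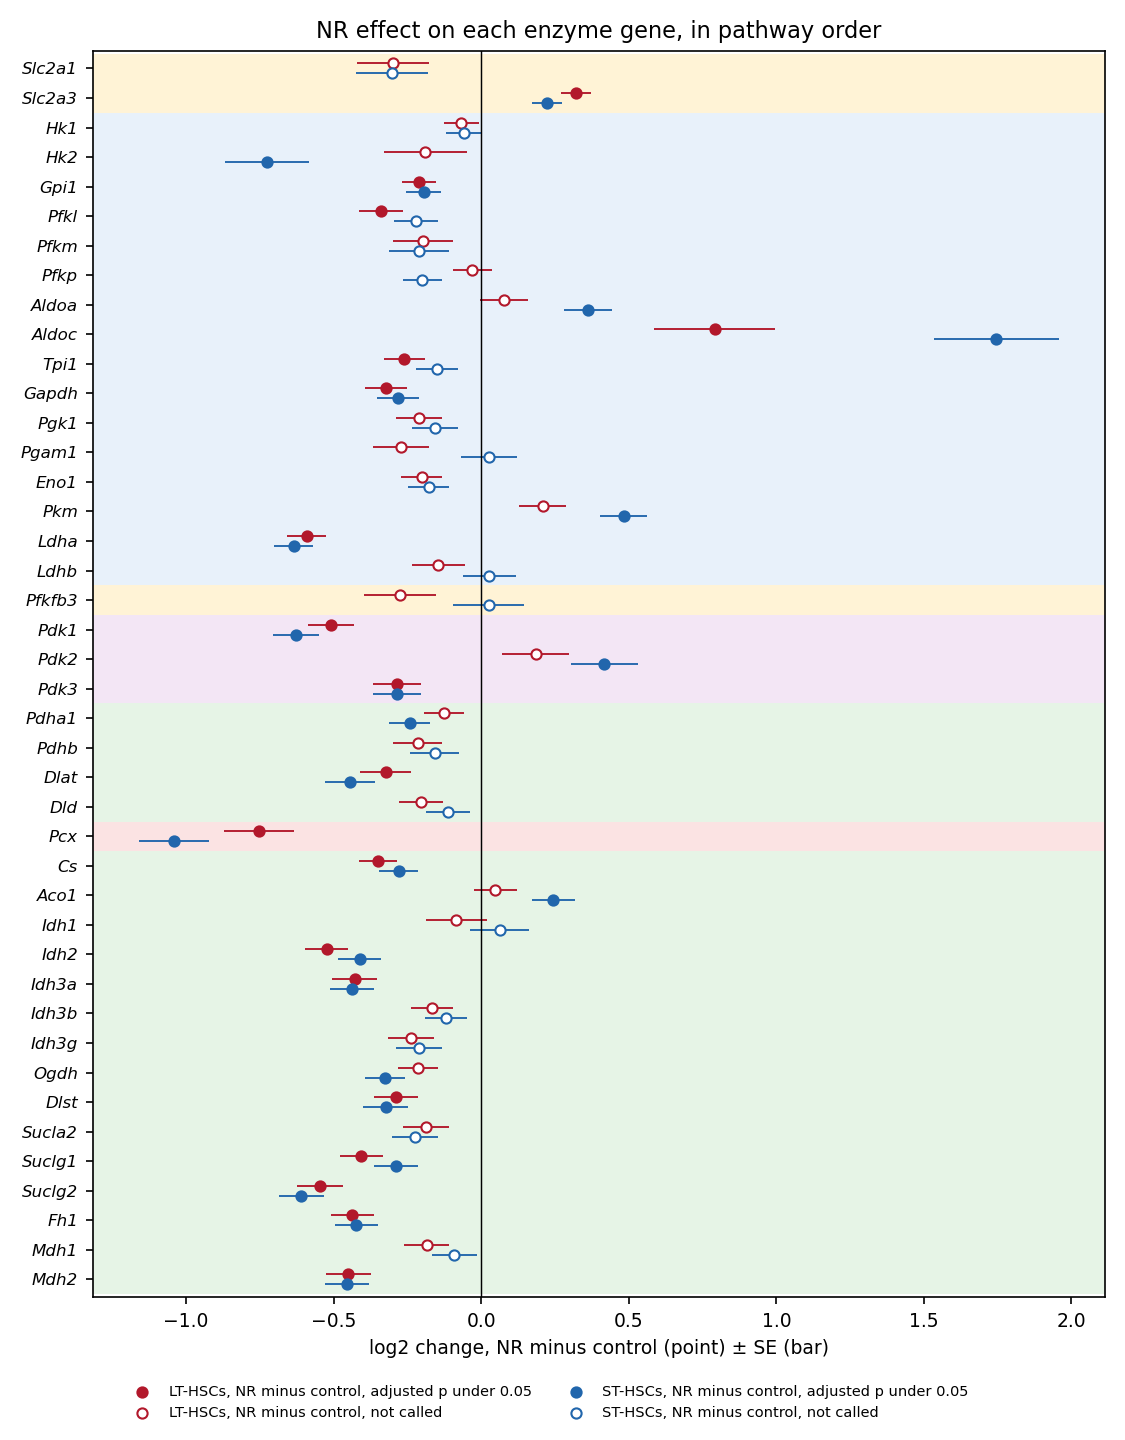
Log2 change with NR (NR minus control) of each of the 42 genes in pathway order, with its standard error as a bar, in LT-HSCs (red) and ST-HSCs (blue); filled points passed an adjusted p of 0.05, open points did not, and background colours mark the classes (uptake and Pfkfb3, glycolysis, PDH kinases, PDH complex, pyruvate carboxylase, TCA cycle). Most points lie left of 0, the 12 mitochondrial TCA cycle genes all do so in both cell types, and Aldoc, Pkm, Slc2a3 and Pdk2 lie to the right.

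Of the 2 glucose transporter genes among the members, Slc2a3 rose with NR in both cell types. Slc2a3 (GLUT3, a high-affinity glucose transporter) was at 345, 350 and 325 CPM in NR LT-HSCs, against 282, 265 and 270 CPM in control LT-HSCs, and at 327, 342 and 327 CPM in NR ST-HSCs, against 284, 278 and 291 CPM in control ST-HSCs. The NR samples lay above the controls in both cell types without overlap. Its log2 change was 0.32 ± 0.05 in LT-HSCs (SE, edgeR adjusted p = 0.00186) and 0.22 ± 0.05 in ST-HSCs (edgeR adjusted p = 0.00856), and both calls held in all 23 alternative settings. Slc2a1 (GLUT1, the widespread basal transporter) was at 42.5, 59.7 and 49.95 CPM in NR LT-HSCs, against 59.0, 69.0 and 59.1 CPM in control LT-HSCs. In ST-HSCs it was at 43.7, 44.9 and 39.9 CPM with NR, against 51.7, 59.3 and 47.5 CPM without. Its change was -0.30 in each cell type and was called only for the average (-0.30 ± 0.09, edgeR adjusted p = 0.0218), although with the sample number as a block it was also called in LT-HSCs (edgeR adjusted p = 0.0333). Per kilobase of exon, Slc2a3 made up 76.5% ± 2.9 of the 2 transporters' level in NR LT-HSCs and 67.9% ± 2.6 in control LT-HSCs, and 78.9% ± 0.8 in NR ST-HSCs and 72.3% ± 2.7 in control ST-HSCs (SD, n = 3 each).

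Of the 8 genes between hexokinase and aldolase, 2 were lower and 1 higher with NR in LT-HSCs, and 2 lower and 2 higher in ST-HSCs. Among genes of at least 5 CPM, 14% were lower and 4.2% higher in LT-HSCs, and 20% and 9.59% in ST-HSCs. The 2 lower of 8 in ST-HSCs are near that share. Hk1, the hexokinase with the higher level per kilobase here, was at 526, 545 and 469 CPM in NR LT-HSCs, against 549, 541 and 524 CPM in control LT-HSCs, and at 546, 579 and 556 CPM in NR ST-HSCs, against 595, 585 and 571 CPM in control ST-HSCs. The groups overlapped, and its changes of -0.07 ± 0.06 and -0.06 ± 0.06 did not pass the test. Hk2, the inducible hexokinase, was at 46.6, 42.6 and 51.0 CPM in NR LT-HSCs, against 52.7, 53.2 and 54.0 CPM in control LT-HSCs, and at 23.1, 24.3 and 36.6 CPM in NR ST-HSCs, against 43.1, 47.5 and 48.0 CPM in control ST-HSCs. It fell in ST-HSCs by 0.73 on the log2 scale (SE 0.14, edgeR adjusted p = 0.00365), with no overlap between the groups. In LT-HSCs its change of -0.19 ± 0.14 did not pass (edgeR adjusted p = 0.519).

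Gpi1, which turns glucose 6-phosphate into fructose 6-phosphate, was lower in both cell types (-0.21 ± 0.06 and -0.20 ± 0.06). Pfkl, the liver-type phosphofructokinase, was at 262, 292 and 264 CPM in NR LT-HSCs, against 328, 357 and 349 CPM in control LT-HSCs, and at 323, 291 and 260 CPM in NR ST-HSCs, against 337, 335 and 346 CPM in control ST-HSCs. It fell in LT-HSCs by 0.34 on the log2 scale (SE 0.08, edgeR adjusted p = 0.0118) and had a change of -0.22 ± 0.08 in ST-HSCs (edgeR adjusted p = 0.0635). The platelet type Pfkp was at 197, 214 and 188 CPM in NR LT-HSCs, against 208, 206 and 198 CPM in control LT-HSCs, and at 134, 145 and 144 CPM in NR ST-HSCs, against 166, 152 and 169 CPM in control ST-HSCs. Its groups overlapped in LT-HSCs, and NR lay below control in ST-HSCs. Neither Pfkp (-0.03 and -0.20) nor the muscle type Pfkm (-0.20 and -0.21) passed in either cell type. Pfkfb3, which makes the phosphofructokinase activator fructose 2,6-bisphosphate, had changes of -0.27 ± 0.12 in LT-HSCs and 0.03 ± 0.12 in ST-HSCs, and neither passed.

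Of the aldolases, which split fructose 1,6-bisphosphate, Aldoc rose in both cell types and Aldoa in ST-HSCs. Aldoc, a minor aldolase best known from brain, was at 18.6, 20.5 and 19.02 CPM in NR LT-HSCs, against 11.6, 10.4 and 11.6 CPM in control LT-HSCs, and at 35.7, 19.9 and 18.7 CPM in NR ST-HSCs, against 7.51, 6.33 and 8.30 CPM in control ST-HSCs. All NR samples lay above all controls, and NR ST-HSC sample 1 stood above the other NR samples. The log2 change was 0.79 ± 0.21 in LT-HSCs (edgeR adjusted p = 0.0273) and 1.75 ± 0.21 in ST-HSCs (edgeR adjusted p = 0.00014), or 1.73-fold and 3.35-fold. The LT-HSC call was lost when any 1 of the 6 LT-HSC libraries was left out, with changes of 0.74 to 0.82. Aldoa, the main aldolase, was at 648, 780 and 628 CPM in NR LT-HSCs, against 636, 701 and 613 CPM in control LT-HSCs, and the groups overlapped (0.08 ± 0.08, edgeR adjusted p = 0.673). In ST-HSCs it was at 860, 829 and 756 CPM with NR, against 639, 641 and 623 CPM without, a rise of 0.36 ± 0.08 without overlap (edgeR adjusted p = 0.00801). Aldoc still made up only 2.48% ± 0.17 of the aldolase level per kilobase in NR LT-HSCs and 1.52% ± 0.19 in control LT-HSCs, and 2.61% ± 0.84 in NR ST-HSCs and 1.03% ± 0.15 in control ST-HSCs (SD, n = 3 each). A second Ensembl gene with the symbol Aldoa held 0.369% as many counts and was not added.

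From triose phosphate isomerase to lactate dehydrogenase, 3 of 8 genes were lower with NR in LT-HSCs and 2 in ST-HSCs, and Pkm was the only one called higher, in ST-HSCs. Among genes of at least 5 CPM, 14% were lower in LT-HSCs, and 20% were lower and 9.59% higher in ST-HSCs. The ST-HSC counts are near these shares. Ldha, the lactate dehydrogenase subunit that favours making lactate, had the highest level of all 42 per kilobase, at 409 CPM per kb over all samples. It was at 1055, 1228 and 1028 CPM in NR LT-HSCs, against 1587, 1764 and 1641 CPM in control LT-HSCs, and at 1065, 1049 and 1001 CPM in NR ST-HSCs, against 1615, 1607 and 1613 CPM in control ST-HSCs. The groups were far apart in both cell types. Ldha fell by 0.59 on the log2 scale in LT-HSCs (SE 0.07, edgeR adjusted p = 0.000226) and by 0.64 in ST-HSCs (SE 0.07, edgeR adjusted p = 4.35e-05), to 0.663 and 0.644 times the control level.

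Pkm, pyruvate kinase, which makes the pyruvate that Ldha uses, rose in ST-HSCs. It was at 1373, 1495 and 1268 CPM in NR LT-HSCs, against 1199, 1223 and 1159 CPM in control LT-HSCs, and at 1714, 1431 and 1369 CPM in NR ST-HSCs, against 1079, 1111 and 1041 CPM in control ST-HSCs. The NR samples lay above the controls in both, but only ST-HSCs passed, with 0.48 ± 0.08 (edgeR adjusted p = 0.00117) against 0.21 ± 0.08 in LT-HSCs (edgeR adjusted p = 0.138). Within each library the log2 ratio of Ldha to Pkm lay between -0.38 and -0.28 in NR LT-HSCs, against 0.40 to 0.53 in control LT-HSCs, and between -0.69 and -0.45 in NR ST-HSCs, against 0.53 to 0.63 in control ST-HSCs. The NR and control ratios did not overlap in either cell type. This pair was chosen after its values were seen, and no test was made of it. A locus on the same strand, Gm49759, overlaps 15.3% of the exon length of Pkm, and its reads could not be told apart there.

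Ldhb, the subunit that favours turning lactate into pyruvate, was at 68.0, 77.3 and 63.4 CPM in NR LT-HSCs, against 74.1, 81.7 and 74.9 CPM in control LT-HSCs, and at 44.2, 46.4 and 41.5 CPM in NR ST-HSCs, against 42.3, 40.5 and 46.9 CPM in control ST-HSCs. The groups overlapped in both cell types, and neither change passed. Its share of the lactate dehydrogenase level per kilobase was 11.7% ± 0.2 in NR LT-HSCs and 8.88% ± 0.10 in control LT-HSCs, and 8.21% ± 0.29 in NR ST-HSCs and 5.35% ± 0.38 in control ST-HSCs (SD, n = 3 each). Gapdh, often used as a reference gene, was lower in both cell types (-0.32 ± 0.07 and -0.28 ± 0.07), and Tpi1 in LT-HSCs (-0.26 ± 0.07). Pgk1 (-0.18 ± 0.06) and Eno1 (-0.19 ± 0.05) were called only for the average, and Pgam1 in neither cell type nor the average. Gapdh, Pgk1, Pgam1, Eno1, Tpi1, Ldha and Aldoa have near-identical copies in the genome, so that the counting could split their reads; adding the counts of named copies changed no call.

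**Figure D2:**
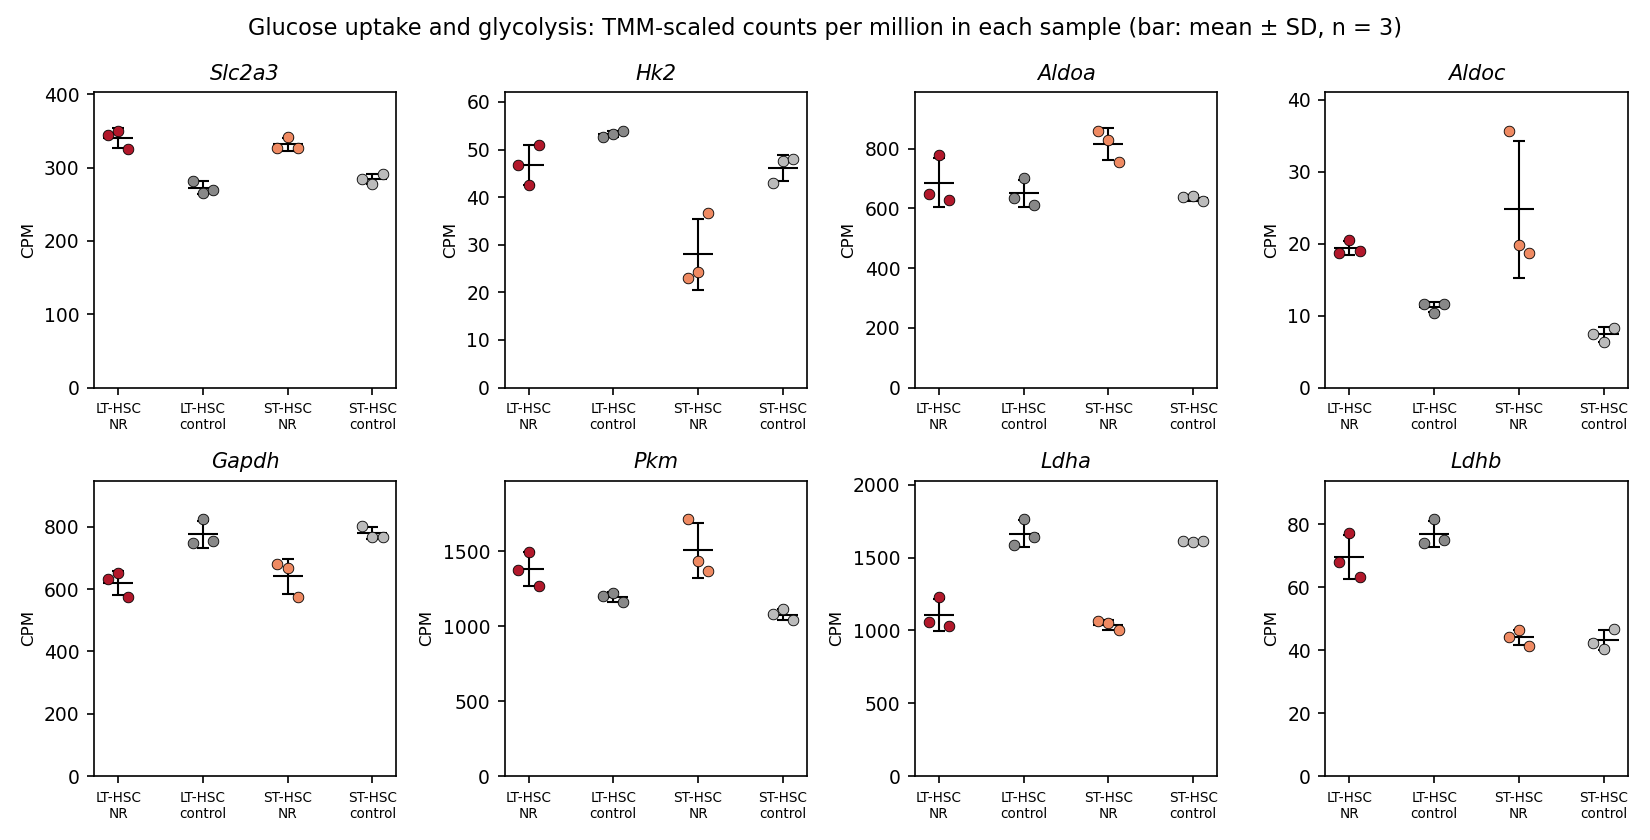
TMM-scaled CPM of 8 glucose uptake and glycolysis genes in each of the 12 samples, with NR groups left of their controls; points are samples and bars the mean ± SD (n = 3), and each axis starts at 0. Ldha and Gapdh are lower in every NR sample than in any control, Slc2a3, Aldoc and Pkm are higher, and the NR and control samples of Ldhb overlap in each cell type.

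Of the 3 pyruvate dehydrogenase kinases, Pdk1 and Pdk3 fell in both cell types and Pdk2 rose in ST-HSCs. Pdk1, a kinase known as a target of hypoxia signalling, was at 111, 95.0 and 91.5 CPM in NR LT-HSCs, against 146, 138 and 139 CPM in control LT-HSCs, and at 100.3, 100.6 and 90.3 CPM in NR ST-HSCs, against 150.5, 144 and 156 CPM in control ST-HSCs. It fell without overlap by 0.51 (SE 0.08, edgeR adjusted p = 0.00152) and by 0.63 (SE 0.08, edgeR adjusted p = 0.000161) on the log2 scale. Pdk2, the most widely expressed of the kinases in other tissues, was at 27.3, 35.4 and 26.2 CPM in NR LT-HSCs, against 24.7, 26.7 and 26.9 CPM in control LT-HSCs, and at 30.9, 35.4 and 34.8 CPM in NR ST-HSCs, against 26.8, 25.5 and 23.5 CPM in control ST-HSCs. It rose in ST-HSCs by 0.42 ± 0.11 (edgeR adjusted p = 0.0229), while the LT-HSC groups overlapped (0.19 ± 0.11, edgeR adjusted p = 0.41). The ST-HSC call was lost without NR ST-HSC sample 2 (0.38), control ST-HSC sample 2 (0.42) or control ST-HSC sample 3 (0.37). Pdk3 had the highest level of the 3 per kilobase, at 73.2% ± 0.7 of their sum in NR LT-HSCs and 73.5% ± 1.3 in control LT-HSCs (SD, n = 3 each). It was lower in both cell types, with -0.28 ± 0.08 in each.

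The 4 subunits of the PDH complex all had negative changes with NR in both cell types. For the average all 4 were called lower, while 1 was in LT-HSCs and 2 were in ST-HSCs. Among genes of at least 5 CPM the shares called lower were 28.6%, 14% and 20%. With the sample number as a block, 3 of the 4 subunits were called lower in LT-HSCs, Pdhb (-0.22, edgeR adjusted p = 0.0443) and Dld (-0.20, edgeR adjusted p = 0.0391) among them. That fit called 1898 of all genes tested lower in LT-HSCs, against 1503 without the block. The labels do not state that sample numbers mark pairs. Dlat, the acetyltransferase core, was at 90.2, 98.5 and 80.5 CPM in NR LT-HSCs, against 103, 115 and 119 CPM in control LT-HSCs, and at 88.5, 91.8 and 79.5 CPM in NR ST-HSCs, against 116, 122 and 116 CPM in control ST-HSCs. It fell by 0.32 in LT-HSCs (SE 0.09, edgeR adjusted p = 0.0299) and by 0.45 in ST-HSCs (SE 0.09, edgeR adjusted p = 0.00316), and NR lay below control in both. Its LT-HSC call was lost in 7 of 23 alternatives, among them the fits without NR LT-HSC sample 1 (-0.33) or 3 (-0.25) and without control LT-HSC sample 2 (-0.31) or 3 (-0.28). The E1 subunits Pdha1 (-0.18 ± 0.05) and Pdhb (-0.19 ± 0.06) and the dihydrolipoyl dehydrogenase Dld (-0.16 ± 0.05) had smaller averaged changes. Without the 2 libraries rich in reads outside genes, 1 of the 4 was called for the average, where 2102 of all 19830 genes tested were called lower.

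Pcx, pyruvate carboxylase, had the largest fall of the 42. It was at 19.8, 13.8 and 15.8 CPM in NR LT-HSCs, against 29.0, 26.8 and 27.6 CPM in control LT-HSCs, and at 16.7, 14.1 and 16.3 CPM in NR ST-HSCs, against 33.0, 32.0 and 31.9 CPM in control ST-HSCs. Every NR sample lay below every control sample. Pcx fell to 0.594 times the control level in LT-HSCs (log2 change -0.75 ± 0.12, edgeR adjusted p = 0.00186) and to 0.486 times in ST-HSCs (-1.04 ± 0.12, edgeR adjusted p = 8.96e-05), and both calls held in all 23 alternative settings.

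In the TCA cycle the 12 mitochondrial members all had negative changes with NR in both cell types. Of these, 8 were called lower in LT-HSCs, 9 in ST-HSCs and 11 for the average, with medians of -0.38, -0.32 and -0.33 on the log2 scale. Among genes of at least 5 CPM, 14%, 20% and 28.6% were called lower. Without the 2 libraries rich in reads outside genes, 7, 5 and 9 of the 12 were called lower and the medians were -0.30, -0.22 and -0.24. Of all 19830 genes tested, that fit called 877, 1229 and 2102 lower. The ST-HSC count of the 12 was also 5 without NR LT-HSC sample 2 or NR ST-HSC sample 3 alone.

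Suclg2, the GTP-forming subunit of succinyl-CoA synthetase, had the smallest p-value of the cycle for the averaged effect. It was at 78.3, 77.9 and 66.0 CPM in NR LT-HSCs, against 105, 109 and 111 CPM in control LT-HSCs, and at 73.1, 69.8 and 64.8 CPM in NR ST-HSCs, against 102, 105 and 110 CPM in control ST-HSCs. The groups did not overlap. It fell by 0.55 (SE 0.08, edgeR adjusted p = 0.000978) and by 0.61 (SE 0.08, edgeR adjusted p = 0.000189) in LT-HSCs and ST-HSCs. The ATP-forming partner Sucla2 was at 97.6, 104 and 94.2 CPM in NR LT-HSCs, against 115, 117 and 105 CPM in control LT-HSCs, and at 102, 108 and 89.6 CPM in NR ST-HSCs, against 111, 118 and 121 CPM in control ST-HSCs. Its changes of -0.19 and -0.22 were called only as an average.

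Cs, citrate synthase, the entry step of the cycle, was lower in both cell types (-0.35 ± 0.07 and -0.28 ± 0.07), as was Fh1, fumarase (-0.44 ± 0.07 and -0.42 ± 0.07). Idh3a, the catalytic subunit of NAD-linked isocitrate dehydrogenase, was at 225, 233 and 198 CPM in NR LT-HSCs, against 281, 314 and 287 CPM in control LT-HSCs, and at 231, 227 and 201 CPM in NR ST-HSCs, against 309, 283 and 301 CPM in control ST-HSCs. It was lower without overlap in both (-0.43 ± 0.08 and -0.44 ± 0.08). Idh3b, a regulatory subunit, was at 134, 130 and 133 CPM in NR LT-HSCs, against 147, 157 and 141 CPM in control LT-HSCs, and at 137, 145 and 124 CPM in NR ST-HSCs, against 157, 140 and 144 CPM in control ST-HSCs. NR lay below control in LT-HSCs, and the ST-HSC groups overlapped. It was not called in either cell type or for the average (-0.14 ± 0.05, edgeR adjusted p = 0.0577), while Idh3g, the other regulatory subunit, was called for the average (-0.22 ± 0.06) and not in either cell type. Ogdh, the first subunit of 2-oxoglutarate dehydrogenase, was lower in ST-HSCs (-0.33 ± 0.07) but missed the threshold in LT-HSCs (-0.21 ± 0.07, edgeR adjusted p = 0.0654). With the sample number as a block, both Ogdh (edgeR adjusted p = 0.023) and Idh3g (edgeR adjusted p = 0.022) were called lower in LT-HSCs, and 10 of the 12 mitochondrial members were. Over all genes tested, 1898 were then called lower, against 1503 without the block. Dlst, the partner of Ogdh, was lower in both cell types (-0.29 ± 0.08 and -0.32 ± 0.08), as was Suclg1 (-0.41 ± 0.07 and -0.29 ± 0.07).

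For malate dehydrogenase and NADP-linked isocitrate dehydrogenase, the mitochondrial gene fell in both cell types and the cytosolic one did not pass the test. Mdh2, mitochondrial malate dehydrogenase, was at 334, 385 and 306 CPM in NR LT-HSCs, against 441, 487 and 472 CPM in control LT-HSCs, and at 344, 358 and 333 CPM in NR ST-HSCs, against 481, 459 and 478 CPM in control ST-HSCs. It fell by 0.45 in each cell type (SE 0.08, edgeR adjusted p = 0.00254 in LT-HSCs and 0.00117 in ST-HSCs). Mdh1, the cytosolic form, was at 321, 334 and 289 CPM in NR LT-HSCs, against 351, 388 and 335 CPM in control LT-HSCs, and at 348, 333 and 294 CPM in NR ST-HSCs, against 353, 338 and 348 CPM in control ST-HSCs. Its changes of -0.18 ± 0.08 and -0.09 ± 0.08 did not pass.

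Idh2, mitochondrial NADP-linked isocitrate dehydrogenase, was at 274, 297 and 241 CPM in NR LT-HSCs, against 377, 392 and 398 CPM in control LT-HSCs, and at 327, 306 and 285 CPM in NR ST-HSCs, against 409, 401 and 411 CPM in control ST-HSCs. It fell by 0.52 (SE 0.07, edgeR adjusted p = 0.000977) and by 0.41 (SE 0.07, edgeR adjusted p = 0.00187). Its cytosolic counterpart Idh1 was at 72.5, 77.4 and 61.4 CPM in NR LT-HSCs, against 69.8, 80.9 and 73.4 CPM in control LT-HSCs, and at 91.6, 78.6 and 74.7 CPM in NR ST-HSCs, against 75.7, 83.6 and 75.4 CPM in control ST-HSCs, and the groups overlapped in both. Within each library the log2 ratio of Idh2 to Idh1 was 1.92 to 1.97 in NR LT-HSCs, against 2.28 to 2.44 in control LT-HSCs, and 1.83 to 1.96 in NR ST-HSCs, against 2.26 to 2.45 in control ST-HSCs. These pairs too were chosen with their values known and were not tested. Aco1, cytosolic aconitase, which binds iron-responsive RNA elements when it lacks its iron-sulfur cluster, was at 84.8, 89.1 and 78.9 CPM in NR LT-HSCs, against 82.0, 79.5 and 82.9 CPM in control LT-HSCs. In ST-HSCs it was at 93.6, 90.2 and 79.6 CPM with NR, against 74.0, 76.1 and 72.4 CPM without, a rise of 0.24 ± 0.07 (edgeR adjusted p = 0.0352) that was lost without control LT-HSC sample 3, NR ST-HSC sample 1 or 2, or any control ST-HSC sample (0.20 to 0.26).

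**Figure D3:**
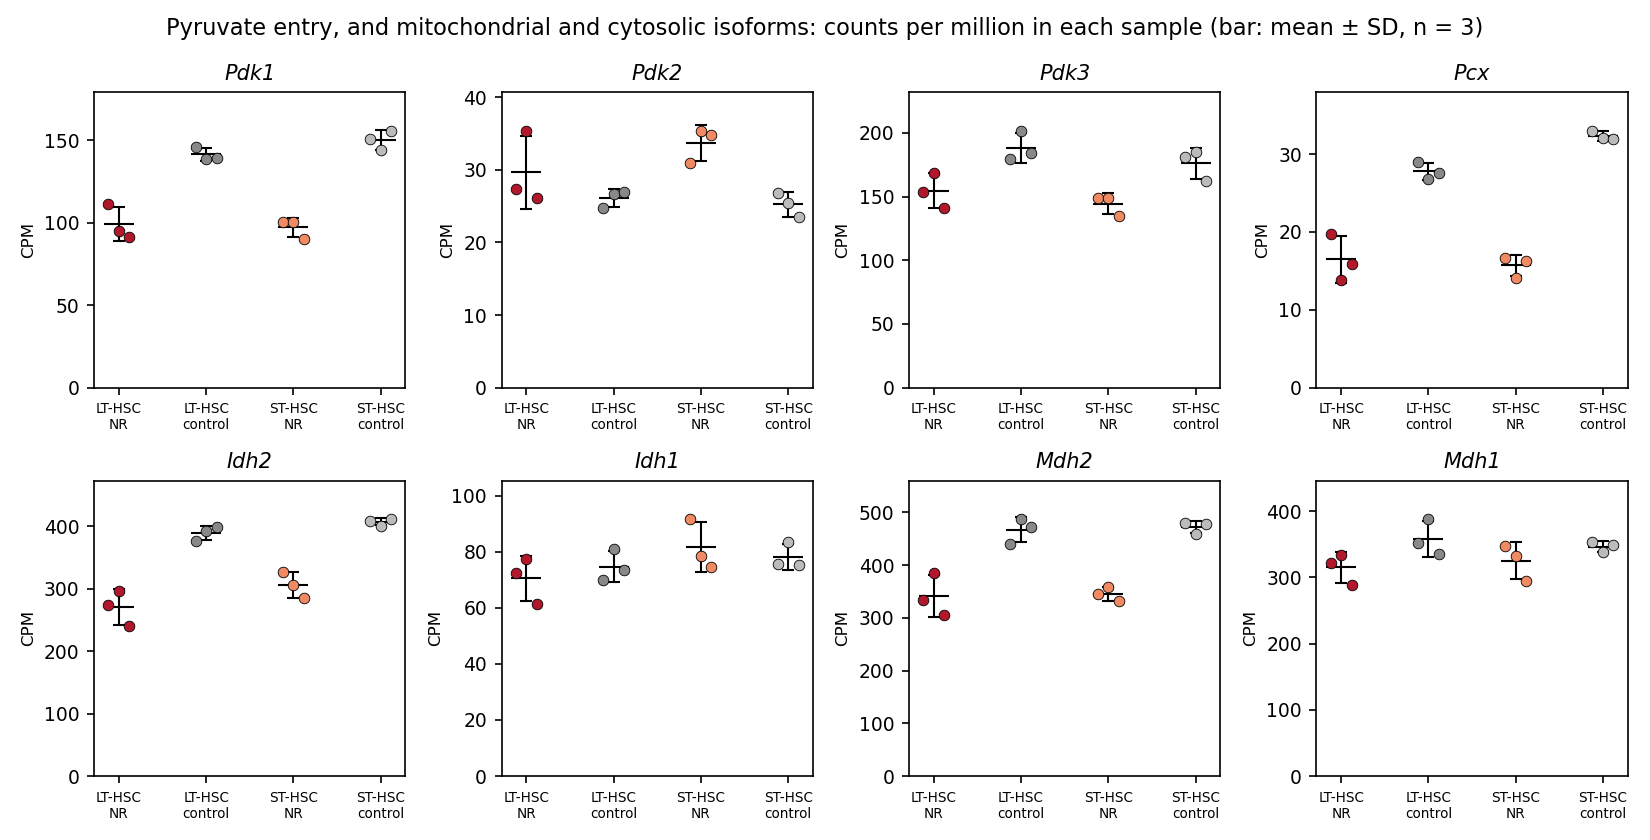
TMM-scaled CPM of the 3 PDH kinases, pyruvate carboxylase (Pcx), and the mitochondrial and cytosolic forms of isocitrate dehydrogenase (Idh2, Idh1) and malate dehydrogenase (Mdh2, Mdh1) in each sample; points are samples and bars the mean ± SD (n = 3), with NR left of control. Pdk1, Pcx, Idh2 and Mdh2 lie below the controls in every NR sample, whereas Idh1 overlaps with its controls in both cell types.

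Glycolysis was then set against the PDH complex and TCA cycle, the comparison for which the genes were grouped. Of the 16 glycolysis enzymes, 5 were lower and 1 higher in LT-HSCs, 4 lower and 3 higher in ST-HSCs, and 8 lower and 3 higher for the average. Among genes of at least 5 CPM, 14% were lower and 4.2% higher in LT-HSCs and 20% lower and 9.59% higher in ST-HSCs, so the count of 4 lower of 16 in ST-HSCs is near that share. Of the 19 PDH and TCA members, 9 were lower and 0 higher in LT-HSCs, 11 lower and 1 higher in ST-HSCs, and 15 lower and 0 higher for the average by edgeR's test; at an unadjusted p under 0.05, 0 were higher in LT-HSCs and 1, Aco1, for the average. DESeq2 and limma-voom each called 0 higher in LT-HSCs and 1 for the average. Without the 2 libraries rich in reads outside genes, glycolysis had 3 lower and 1 higher in LT-HSCs and 2 lower and 3 higher in ST-HSCs, and PDH and TCA had 7 lower and 0 higher, and 6 lower and 1 higher. Of all 19830 genes tested, that fit called 877 lower and 521 higher in LT-HSCs, and 1229 lower and 1545 higher in ST-HSCs. The glycolysis counts were the less stable, at 1 lower in LT-HSCs without NR LT-HSC sample 1, NR LT-HSC sample 2 or control LT-HSC sample 2.

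The mean log2 CPM of the 16 glycolysis enzymes was 7.63 to 7.81 in NR LT-HSCs, against 7.82 to 7.88 in control LT-HSCs, and 7.60 to 7.76 in NR ST-HSCs, against 7.67 to 7.73 in control ST-HSCs, where the groups overlapped. For the 19 PDH and TCA members it was 7.16 to 7.37 in NR LT-HSCs, against 7.54 to 7.61 in control LT-HSCs, and 7.24 to 7.40 in NR ST-HSCs, against 7.59 to 7.62 in control ST-HSCs, with no overlap. The first mean minus the second was 0.39, 0.44 and 0.47 in NR LT-HSCs, against 0.28, 0.26 and 0.28 in control LT-HSCs, and 0.36, 0.26 and 0.36 in NR ST-HSCs, against 0.10, 0.08 and 0.14 in control ST-HSCs. It was higher with NR by 0.16 in LT-HSCs and 0.23 in ST-HSCs, and each NR sample lay above the controls of its cell type. Much of this rested on Aldoc. Without Aldoc, an alternative chosen after seeing the data, the difference was higher with NR by 0.097 in LT-HSCs and 0.11 in ST-HSCs. It then lay between 0.62 and 0.69 in NR LT-HSCs, against 0.56 in control LT-HSCs, and between 0.49 and 0.59 in NR ST-HSCs, against 0.41 to 0.45 in control ST-HSCs, still without overlap. The mean of the other 15 glycolysis enzymes was 7.85 to 8.04 in NR LT-HSCs, against 8.10 to 8.18 in control LT-HSCs, and 7.83 to 7.93 in NR ST-HSCs, against 8.001 to 8.04 in control ST-HSCs, so that the ST-HSC groups overlapped only with Aldoc in the mean. A difference of mean log2 levels takes out any factor common to a library; it is given without a test.

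**Figure D4:**
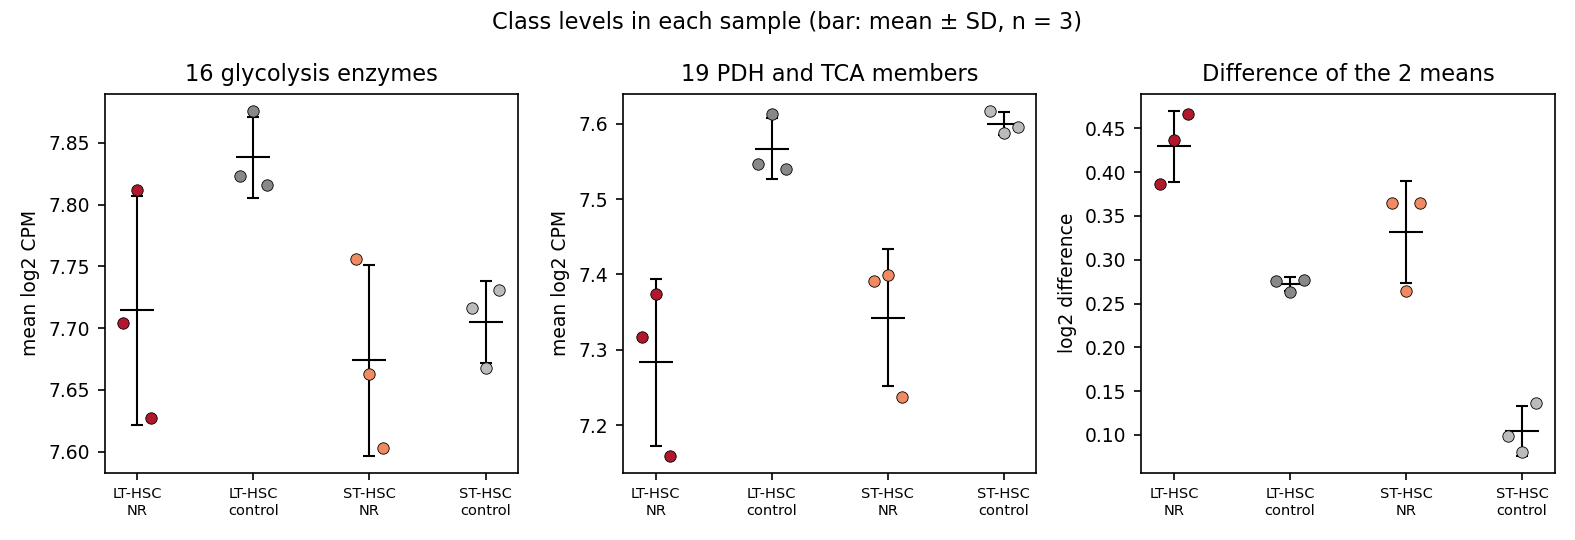
Mean log2 CPM of the 16 glycolysis enzymes (left), of the 19 PDH and TCA members (middle), and the first minus the second (right), in each sample; points are samples, bars the mean ± SD (n = 3), NR is left of control, and the axes do not start at 0. PDH and TCA means lie lower with NR in both cell types, glycolysis means, Aldoc included, overlap with control in ST-HSCs, and the difference lies higher with NR in all 6 NR samples than in the controls of the same cell type.

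Whether NR acted differently on the 2 cell types was asked by the difference of the effects (ST-HSCs minus LT-HSCs). Of the 42 members, 0 were called by edgeR, where 0.0% of all genes tested were called lower and 0.0101% higher. At an unadjusted p under 0.05 there were 5 by edgeR, namely Hk2, Aldoa, Aldoc, Pgam1 and Pkm. The share of all genes tested at that unadjusted p is not given here, for this or the other comparisons. DESeq2 and limma-voom called 0 each, with 6 each at an unadjusted p under 0.05. The 6 of DESeq2 were Hk2, Aldoa, Aldoc, Pgam1, Pkm and Aco1. The 6 of limma-voom were Hk2, Aldoa, Aldoc, Pkm, Pcx and Aco1, so members outside glycolysis were among both. The largest differences were 0.96 ± 0.29 for Aldoc (edgeR adjusted p = 0.573) and -0.54 ± 0.20 for Hk2 (edgeR adjusted p = 0.678), so none of the changes called in 1 cell type is shown to be particular to it.

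LT-HSCs and ST-HSCs differed at few of these genes, as at few of all genes tested. In control culture edgeR called 0 members lower and 2 higher in LT-HSCs, where 1.5% of all genes tested were lower and 3.51% higher. These member counts are near those shares. At an unadjusted p under 0.05, 2 were lower (Pfkfb3 and Pdha1) by edgeR, 3 by DESeq2 and 7 by limma-voom. DESeq2 and limma-voom also called 0 lower and 2 higher after adjustment. Ldhb, whose 3 control samples per cell type are given above, was 1.78 times as high in LT-HSCs as in ST-HSCs (log2 difference 0.83 ± 0.09, edgeR adjusted p = 0.000101). Pfkp was at 208, 206 and 198 CPM in control LT-HSCs, against 166, 152 and 169 CPM in control ST-HSCs, higher by 0.33 ± 0.07 (edgeR adjusted p = 0.00856). That call was lost without control ST-HSC sample 2 (0.29). Pfkfb3 was at 19.5, 20.4 and 18.5 CPM in control LT-HSCs, against 28.2, 22.4 and 23.7 CPM in control ST-HSCs (-0.34 ± 0.12, edgeR adjusted p = 0.157). Pdha1, an E1 subunit of PDH, was at 136, 117 and 124 CPM in control LT-HSCs, against 139, 139 and 146 CPM in control ST-HSCs (-0.17 ± 0.07, edgeR adjusted p = 0.245).

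With NR in the medium, 2 members were lower and 3 higher in LT-HSCs than in ST-HSCs, against 2.27% and 3.8% of all genes tested. Ldhb (0.66 ± 0.09, edgeR adjusted p = 0.000548) and Pfkp (0.50 ± 0.07, edgeR adjusted p = 0.000397) were again higher. Hk2 was higher by 0.74 ± 0.14 (edgeR adjusted p = 0.00652), Pfkfb3 was lower (-0.64 ± 0.12, edgeR adjusted p = 0.00578), and so was Pgam1, phosphoglycerate mutase (-0.45 ± 0.09, edgeR adjusted p = 0.0114). With the sample number as a block, 4 members were lower. RLE factors also gave 4 and upper-quartile factors 6, each beside 3 higher. Over all genes tested, these fits called 628, 566 and 765 lower, against 451 with TMM factors and no block. Without the 2 libraries rich in reads outside genes 0 were lower by edgeR's adjusted p and 8 at an unadjusted p under 0.05 (Pgam1 -0.46 and Pfkfb3 -0.56; in all libraries DESeq2 gave 5 lower and limma-voom 3), and without NR ST-HSC sample 1 Pgam1 was no longer called (-0.36).

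**Figure D5:**
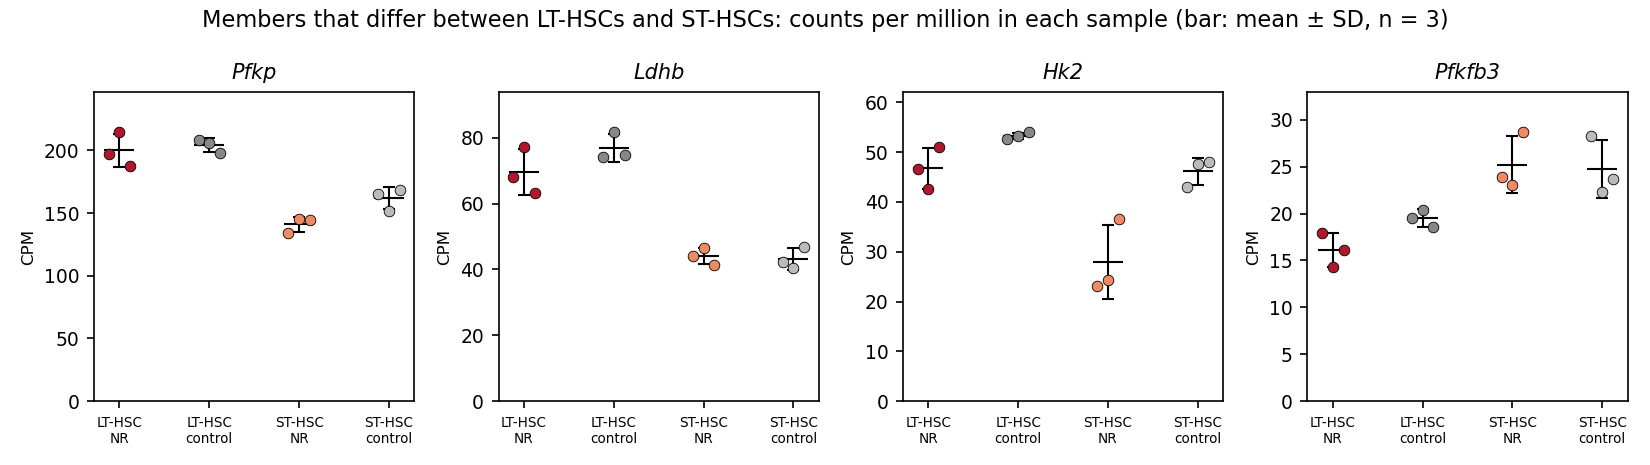
TMM-scaled CPM of 4 members in LT-HSC and ST-HSC samples with and without NR; points are samples, bars the mean ± SD (n = 3), and each axis starts at 0. Pfkp and Ldhb lie higher in LT-HSC samples than in ST-HSC samples of the same culture, Hk2 is lowest in NR ST-HSCs, and Pfkfb3 lies lower in LT-HSCs, a difference called only with NR.

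Other genes of the same pathways, from lists written with earlier results of these data known, were counted over the averaged NR effect. For that effect 16.1% of all genes tested were lower and 7.88% higher, and 28.6% and 12.7% of genes of at least 5 CPM. Of 14 further genes of the TCA cycle and its supply, 7 were lower and 1 higher. The mitochondrial malic enzyme Me2 (-0.46 ± 0.05) and aspartate transaminase Got2 (-0.42 ± 0.04) had the smallest p-values among the lower, and the succinate dehydrogenase subunit Sdha (-0.30 ± 0.04), missing from the 42, was lower too. The gene that rose was Me1, cytosolic malic enzyme (1.04 ± 0.10). Of 11 further pyruvate genes, 5 were lower, led by Pck2, mitochondrial PEP carboxykinase (-0.71 ± 0.04), and Mpc1, a subunit of the mitochondrial pyruvate carrier (-0.36 ± 0.06), and 1 was higher, Pdk4.

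Pdk4, the fasting-induced PDH kinase, was at 5.41, 4.64 and 6.07 CPM in NR LT-HSCs, against 2.25, 2.12 and 1.43 CPM in control LT-HSCs, and at 2.48, 2.23 and 1.69 CPM in NR ST-HSCs, against 0.492, 0.501 and 0.889 CPM in control ST-HSCs. It rose in both cell types (averaged change 1.61 ± 0.21, edgeR adjusted p = 0.000106). Of 24 further glycolysis genes 19 were tested, with 6 lower and 5 higher. Over all genes tested 16.1% were lower and 7.88% higher. The 6 lower are near the 28.6% of genes of at least 5 CPM. Some of the 19 lie under that level, such as Pgam2 (mean 2.39 CPM) and Ldhc (0.20 CPM), so that share does not match the whole list. The lactate and pyruvate transporter Slc16a1 (-0.51 ± 0.04) and ADP-dependent glucokinase Adpgk (-0.46 ± 0.05) were among the lower. The transporter Slc2a8 (0.56 ± 0.07) and neuronal enolase Eno2 (1.12 ± 0.15) were among the higher. Of 7 pentose phosphate genes, 3 were lower, with Pgls at -0.51 ± 0.06 and Tkt at -0.17 ± 0.05, and transaldolase Taldo1 was higher (0.70 ± 0.06).

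Markers of other blood cells moved with NR beside these genes. Over all genes tested, 7.58% were called lower and 2.38% higher in LT-HSCs, and 11.1% and 5.82% in ST-HSCs. Of 7 megakaryocyte markers, summed at 1582 to 2191 CPM in NR LT-HSCs, against 2436 to 2762 CPM in control LT-HSCs, and at 1656 to 2159 CPM in NR ST-HSCs, against 2712 to 2978 CPM in control ST-HSCs, 3 were lower in LT-HSCs and 4 in ST-HSCs. Of 10 monocyte and macrophage markers 8 were tested, and 1 was higher in LT-HSCs and 3 in ST-HSCs, at summed levels of 334 to 430 CPM in NR LT-HSCs, against 319 to 355 CPM in control LT-HSCs, and of 365 to 444 CPM in NR ST-HSCs, against 275 to 290 CPM in control ST-HSCs. The 8 erythroid markers summed to 68.4 to 76.9 CPM in NR LT-HSCs, against 92.9 to 98.2 CPM in control LT-HSCs, and to 34.5 to 40.2 CPM in NR ST-HSCs, against 50.5 to 61.2 CPM in control ST-HSCs. The 8 lymphoid markers summed to 338 to 403 CPM in NR LT-HSCs, against 389 to 422 CPM in control LT-HSCs, and to 289 to 334 CPM in NR ST-HSCs, against 381 to 406 CPM in control ST-HSCs. Of these, 5 erythroid and 6 lymphoid markers were tested, and 1 of each list was called lower in each cell type. Of the 10 stem cell markers, 1 was lower in LT-HSCs, and 2 were lower and 3 higher in ST-HSCs. In addition, 1 stromal or endothelial marker of 7 was lower in ST-HSCs, and no granulocyte marker of 10 was called. Of 6 mast cell or basophil markers 5 were tested, and none was called. No listed marker was at 0 in all libraries. The part of these cells, and of the reads outside genes, in the enzyme changes was not tested.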

How the data were processed

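RNA counts of the 12 libraries were deposited by the authors as 1 table of whole-number read counts per Ensembl gene, not normalized. Per the labels' protocols, libraries were made by SMART-seq v4 amplification and Nextera XT tagmentation. Per the submitters' processing notes, FastQC 0.11.2, STAR 2.5.0b and HTSeq 0.6.1 were used. In the sources used here, no genome build, annotation, strand setting or read filter is stated. Rows for reads in no feature (8.69% to 28.5%) and ambiguous reads (3.30% to 4.38%) entered neither library sizes nor any test.

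Symbols, exon lengths and overlaps came from GENCODE M21. Labels gave the groups. Tests used edgeR 4.0.16 in R 4.3.3 (two-sided quasi-likelihood F-tests, TMM factors), with 1 mean for each of the 4 groups over the 12 samples. filterByExpr (minimum count 10, minimum total 15) left 19830 genes; p-values were adjusted over all of them within each of 6 comparisons. The fit had 8 residual degrees of freedom, and biological variation (BCV) came to 0.402. CPM are TMM-scaled, and class means used log2 CPM with a prior count of 2. Errors of changes are SE, those of levels SD. Strand being unstated, reads of a gene and its antisense partner cannot be told apart.

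Per-sample values are given for the member with the smallest averaged p in each class, for members called higher with NR, for the 2 members with the smallest p per direction between cell types, and for the isozymes of a step whose NR effects differ most. The members, lists and rules were chosen with earlier results of these data known. Alternatives were DESeq2 1.42.0, limma-voom (limma 3.58.1) with sample quality weights, RLE or upper-quartile factors, other filters, fits of 2 groups, a replicate block, a covariate for the share of reads outside genes, named copies added, and libraries left out. Same-numbered samples deviated together between NR and control LT-HSCs (r 0.25 to 0.71) and between NR LT-HSCs and NR ST-HSCs (0.15 to 0.84). Both passed a rule of r over 0.1 in every pair. NR and control ST-HSCs (-0.06 to 0.67) and control LT-HSCs and control ST-HSCs (-0.23 to 0.43) did not pass. Some differently numbered samples had a higher r, as NR LT-HSC sample 1 with control LT-HSC sample 2 (0.33), against 0.25 for NR and control LT-HSC samples 2. The labels state no pairing, so sample numbers are not shown to mark pairs. The edgeR step was tested on simulated data.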

Additional observations from a re-analysis of the deposited data

How the results depend on the processing

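Every direction of a called member held in every alternative tried. With fits that left out 1 library, members called lower numbered 10 to 17 in LT-HSCs, 10 to 19 in ST-HSCs and 17 to 27 for the average, and members called higher 1 to 2, 4 to 6 and 5 to 6. Glycolysis members called lower numbered 1 to 5, 2 to 5 and 4 to 8, and higher 0 to 1, 3 and 3; PDH and TCA members called lower numbered 7 to 9, 6 to 12 and 10 to 15, and higher 0, 0 to 1 and 0 to 1. Between LT-HSCs and ST-HSCs, 0 were lower and 1 to 3 higher in control culture, and 1 to 4 lower and 3 higher with NR; 0 were called for the difference of effects. The glycolysis minus PDH and TCA difference changed with NR by 0.14 to 0.18 in LT-HSCs and 0.21 to 0.26 in ST-HSCs, and by 0.29 in ST-HSCs without Aco1, Idh1 and Mdh1; without Aldoc, chosen after seeing the data, it changed by 0.097 in LT-HSCs and 0.11 in ST-HSCs. LT-HSC counts of lower members were 10 without NR LT-HSC sample 1 or control LT-HSC sample 2 and 11 without NR LT-HSC sample 2; ST-HSC counts were 10 without NR LT-HSC sample 2 or NR ST-HSC sample 3; and the averaged count was 17 without NR ST-HSC sample 3.

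With no filter, 46386 genes were tested and 10 members were lower in LT-HSCs and 10 in ST-HSCs; glycolysis had 1, 2 and 4 lower in LT-HSCs, ST-HSCs and the average, and PDH and TCA 6 in ST-HSCs. With RLE factors glycolysis had 3 lower in LT-HSCs and 2 in ST-HSCs, and 4 members were lower in LT-HSCs than ST-HSCs with NR. That last count was 6 with upper-quartile factors or a mean of at least 5 CPM, 4 with the covariate or the replicate block, 5 with DESeq2 and 0 without the 2 libraries rich in reads outside genes. Without those 2, members lower were 10 in ST-HSCs and 17 for the average, glycolysis had 3, 2 and 4 lower, and PDH and TCA 6 in ST-HSCs. With the covariate glycolysis had 7 lower in ST-HSCs. Glycolysis had 2 higher in LT-HSCs with upper-quartile factors, at least 5 CPM, the covariate, 2 groups, limma-voom or DESeq2. Averaged PDH and TCA members called higher were 1 (Aco1) with RLE or upper-quartile factors, no filter, at least 5 CPM, the replicate block, the covariate, limma-voom, DESeq2 or without the 2 libraries. In control culture 4 members were higher in LT-HSCs when only 2 groups were fitted. The causes of these shifts were not tested. Called in all alternatives were 10 of the 17 lower and 1 of the 2 higher members in LT-HSCs, 10 of 18 and 4 of 6 in ST-HSCs, and 17 of 27 and 5 of 5 for the average. The fit with the sample number as a block (replicate block) is not shown to be a pairing. It gave 22 lower and 2 higher in LT-HSCs and 22 and 6 in ST-HSCs. Over all genes tested it called 1898 lower and 670 higher in LT-HSCs, against 1503 and 472 without the block. In ST-HSCs it called 2653 lower and 1361 higher, against 2193 and 1155 without the block, so calls rose over all genes too. It added calls for Slc2a1, Pdhb, Dld, Idh3g and Ogdh in LT-HSCs and for Slc2a1, Pfkl, Idh3g and Sucla2 in ST-HSCs, all lower, and for the average Pfkm, Idh3b and Mdh1 (lower) and Aco1 (higher).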
